A study of Homo sapiens with 8 samples.

Results

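The IGF2BP2 peaks in 3′ UTRs are the peaks of both IGF2BP2 immunoprecipitation (IP) libraries whose annotated transcript region is the 3′ UTR, with repeated lines removed. There were 23957 such peaks in replicate 1 and 23221 in replicate 2, 47178 in all, out of 362700 and 341305 IGF2BP2 peaks and 1843422 peaks in the 4 IP libraries of the series. They made up 6.61% and 6.80% of the IGF2BP2 lists and lay in 5230 and 5103 genes. The series profiled RNA bound by IGF2BP2 or by PTBP1 in A172, an established human glioma cell line, by eCLIP, in which proteins are crosslinked to RNA in living cells and precipitated and the attached RNA fragments are sequenced. Cells of both experiments were given 500 µM 4-thiouridine, a photoreactive uridine analogue, for 3 h. They were then exposed 2 times to 400 mJ/cm2 of 365 nm light, and their RNA was cut with RNase I. The groups differed in the antibody, against IGF2BP2 or PTBP1, and in the membrane piece taken, about 65 to 140 kDa for IGF2BP2 and about 55 to 130 kDa for PTBP1. Each protein has 2 IP libraries and 2 libraries of input, the 2% of lysate kept before the IP. Of these, the input libraries were not used here on their own. Nothing in the labels says that the 2 replicates came from separate cultures, so every p-value measures only the spread between these libraries.

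IGF2BP2, also called IMP2, belongs to a family of 3 paralogous RNA-binding proteins with RRM and KH domains that bind mature mRNAs, often in the 3′ UTR, and are known for stabilising, localising and regulating the translation of their targets. The family is high in the embryo and reappears in many tumours, glioma among them. KH domains of the family favour CA-rich elements, and GGAC, the core of the m6A motif, has also been tied to their binding. PTBP1, which serves here as the comparison, binds pyrimidine-rich RNA and is best known as a splicing regulator.

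The deposited score of a peak is the log2 ratio of IP to input reads plus a constant, which was placed on 1 common scale per library. The numbers of IP and input reads were recovered from the deposited values for 93.5% and 93.4% of the IGF2BP2 3′ UTR peaks. The share was 74.3% and 75.8% for its coding peaks and 89.1% and 89.9% for its intron peaks. For PTBP1 peaks in 3′ UTRs it was 68.1% and 69.2%. Recovery left out peaks with a negative deposited score or a −log10 p of 0 or 400, so values by reads leave them out too. No source used here names the divisor, which was taken to be the input because whole reads fit the values. A peak is called enriched where its log2 score and its −log10 p are both at least 3. The 2 proteins do not meet the same bar, because the constant was 1.74 and 1.90 in the IGF2BP2 replicates and -0.30 and -0.08 in those of PTBP1, so that a lower ratio of IP to input reads sufficed for IGF2BP2. Comparisons between regions of 1 IGF2BP2 library share 1 scale.

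Few sequences of these peaks could be shown, since 3′ UTRs were not among the sequence tables used here. A small set of peaks lay where the 3′ UTR of 1 gene meets the start region of another gene or a microRNA hairpin, and their sequence was taken from the RefSeq tables for GRCh38.p14. The 5 below were chosen because peaks at the place were enriched in both replicates. Each is the middle of 1 peak, at most 30 bases on the strand of the peak, with GGAC, and CAT where C, T or A follows, in capitals together with that base.
TATDN2 (chr3:10280762-10280791, plus strand, replicate 1): cccatgtgggaagtcgggggGGACctgatt
TMEM201 (chr1:9614671-9614700, plus strand, replicate 1): cCATCtctggctctgagggcgctccctcct
CEBPB (chr20:50192254-50192275, plus strand, replicate 2): caaaccaaccgcacatgcagat
CBX5 (chr12:54231437-54231466, minus strand, replicate 1): tcactgttcacccagcactagcagtaccag
ZNF275 (chrX:153351845-153351874, plus strand, replicate 1): agcgcctgccctacctgcagccctgggttg

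In TATDN2, a putative deoxyribonuclease gene, the peak had 22 IP reads to 2 input reads in replicate 1 (log2 score 5.20) and 30 to 4 in replicate 2 (log2 score 4.81). In TMEM201, a gene for an inner nuclear membrane protein, it had 22 to 4 reads (4.20) and 16 to 6 (3.32). In CEBPB, which encodes the transcription factor C/EBPβ, it had 15 to 4 (3.65) and 17 to 1 (5.99). In CBX5, which encodes the heterochromatin protein HP1α, the peak lay in the hairpin of MIR3198-2 and had 8 to 1 (4.74) and 8 to 2 (3.90). In ZNF275, a zinc finger gene, it had 10 to 1 (5.06) and 7 to 1 (4.71). All 5 thus passed the bar in both replicates, although in 3 of them, CEBPB, CBX5 and ZNF275, the input was 1 read in at least 1 replicate.

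Among the 3′ UTR peaks for which the 30 bases around the middle could be read in full (55 in replicate 1 and 48 in replicate 2), CAT followed by C, T or A was present in 9.09% and 8.33%. In the middle 30 bases of 35116 RefSeq promoter windows it was present in 18.2%. GGAC was present in 14.5% and 16.7% of the peaks and in 10.2% of the promoter windows. GGAC can share its last base with the first of the CAT motifs, and both were searched on the strand of the peak or of the promoter's gene only. These peaks are few and lie at gene starts or in microRNA hairpins, so the shares describe them alone.

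The strand of the peaks limits what can be said of single genes. Where the strand of the annotated gene was known (80.8% and 80.6% of the 3′ UTR peaks), 12.6% of the peaks of either replicate lay on the strand opposite to their gene. Among enriched 3′ UTR peaks the share was 11.3% and 11.5%, and among coding peaks 7.43% and 7.44%. A peak on the other strand of the same library overlapped 18.7% and 18.6% of the 3′ UTR peaks, and in 53.9% and 55.7% of those pairs both strands carried the same score and p. TRIM25, which encodes a ubiquitin ligase, is an example. Its peak at the MIR3614 hairpin (chr17:56891299-56891328, minus strand) had 20 IP to 8 input reads in replicate 1, and so did the peak on the plus strand that overlaps it. In replicate 2 both had 16 to 15. Identical values thus stood on both strands for a part of the list, and counts of regions below include both strands unless stated.

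A typical 3′ UTR peak was short and rested on few reads. The median length was 25 and 24 nt, with quartiles of 16 to 37 nt and 15 to 36 nt. The median number of recovered IP reads was 6 in both replicates, against 5 in coding sequence and 4 in introns. The recovery allowed no fewer than 3 IP reads, so this floor was set by the method and is not a result. Peaks of exactly 3 were 21.8% and 22.3% of those with recovered reads, and peaks of at least 10 made up 31.6% and 30.3%. The recovered input was 1 read for 31.3% and 32.6%. The recovery allowed no input of 0, so 1 may also stand for none. The median log2 score was 2.74 and 2.80, above the medians of coding sequence (1.15 and 1.23) and of introns (2.32 and 2.49) of the same libraries.

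IGF2BP2 peaks in 3′ UTRs were enriched more often than IGF2BP2 peaks elsewhere. Of the 3′ UTR peaks, 20.9% of replicate 1 (95% Wilson interval 20.4% to 21.4%) and 20.9% of replicate 2 (20.4% to 21.4%) were enriched. Over all peaks of the list the share was 9.19% and 9.35%, in coding sequence 5.35% and 5.79%, in introns 8.68% and 8.81% and in 5′ UTRs 4.69% and 4.13%. Wilson intervals cover counting error only. Among PTBP1 peaks in 3′ UTRs the enriched share was 2.22% and 2.15%, against 2.91% and 2.81% of all PTBP1 peaks. The mean over replicates was 20.9% ± 0.03 (SD, n = 2) for IGF2BP2 and 2.18% ± 0.05 (SD, n = 2) for PTBP1. The difference of 18.7 percentage points far exceeded the spread between replicates. It includes the unlike bars of the 2 proteins, since a lower ratio of IP to input reads sufficed for IGF2BP2. The part of the bar in the difference was not tested. A two-sided exact permutation test gave p = 0.333, the smallest p that 2 libraries against 2 allow.

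The higher share was not confined to deep peaks or to shallow ones, among the read classes where the bar can be met. These classes hold peaks with recovered reads only, and a larger part of the coding and intron peaks than of the 3′ UTR peaks is missing from them. Peaks of 3 to 5 IP reads could not reach the −log10 p of 3, so 0 of them were enriched in any region. At 6 to 9 IP reads, the enriched share was 39.7% and 41.1% in 3′ UTRs, against 16.7% and 18.0% in coding sequence and 33.8% and 34.1% in introns. At 10 to 19 reads, the shares were 42.2% and 43.8% in 3′ UTRs, 15% and 16.1% in coding sequence and 26.4% and 28.2% in introns. At 50 reads or more, they were 41.0% and 36.9% in 3′ UTRs, 10.3% and 11.1% in coding sequence and 12.7% and 13.0% in introns. The 3′ UTR share thus moved little with depth, while the intron share fell from the shallow to the deep class. PTBP1 peaks in 3′ UTRs of 50 reads or more were enriched in 5.32% and 7.67%.

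**Figure D1:**
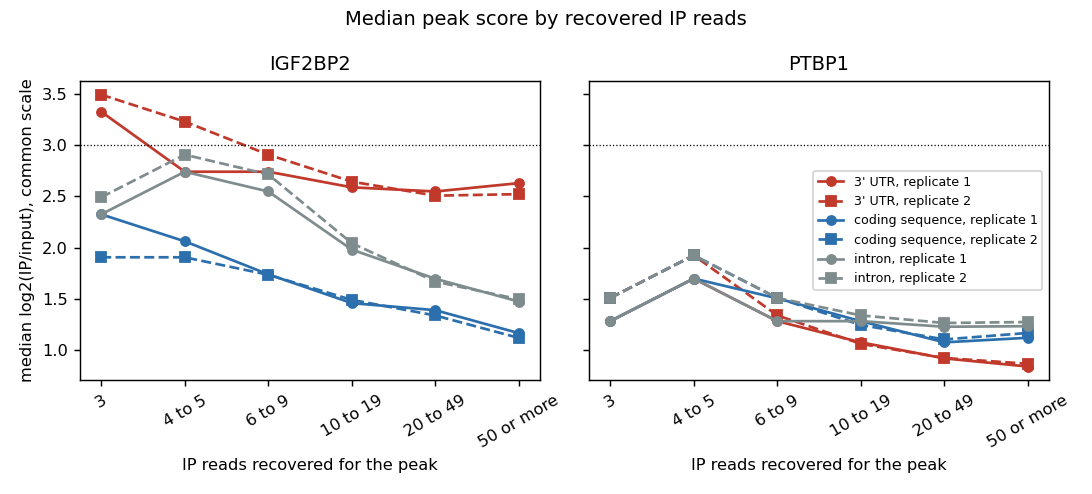
Median log2(IP/input) on the common scale of each library (y axis) for peaks in classes of recovered IP reads (x axis), for IGF2BP2 (left) and PTBP1 (right); colours are transcript regions, circles and squares replicates 1 and 2, and the dotted line is the log2 bar of 3. The IGF2BP2 3′ UTR medians are 2.63 and 2.52 at 50 reads or more, against 1.17 and 1.12 in coding sequence. Peaks without recovered reads are not included.

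The 3′ UTR peaks were also found again more often. Counting overlaps of 1 nt or more on 1 strand, the other replicate had a peak for 61.3% (60.7% to 61.9%) of the 3′ UTR peaks of replicate 1 and 63.6% (63.0% to 64.2%) of those of replicate 2. In coding sequence the share was 51.7% and 54.8%, and in introns 46.3% and 49.8%. Enriched 3′ UTR peaks were found again in 80.2% and 81.6%. The share depended on depth, from 31.8% and 36.8% at 3 IP reads to 98.4% and 98.0% at 50 or more. At 10 to 19 IP reads it was 84.2% and 85.8% in 3′ UTRs, 75.9% and 78.4% in coding sequence and 80.5% and 82.1% in introns, so the regions differed by less at matched depth.

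PTBP1 peaks overlapped 3′ UTR peaks of IGF2BP2 about as often as its intron peaks, and coding peaks more often. A peak of at least 1 PTBP1 replicate overlapped 42.4% and 41.9% of the 3′ UTR peaks, 41.7% and 41.7% of the intron peaks and 65.7% and 65.4% of the coding peaks. For enriched peaks the share was 38.3% and 37.9% in 3′ UTRs, 35.8% and 35.9% in introns and 52.1% and 52.4% in coding sequence. PTBP1 lists held 18854 and 17716 peaks in 3′ UTRs and 79592 and 72888 in coding sequence, so their coverage of these regions differed.

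Joining the overlapping peaks of both replicates gave 13637 reproducible 3′ UTR regions of IGF2BP2 in 4102 genes. Of these, 2532 (18.6%), in 1347 genes, were enriched in both replicates. Over all reproducible IGF2BP2 regions 5.94% were enriched in both, in coding sequence 538 of 15904 (3.38%) and in introns 5553 of 114040 (4.87%). For PTBP1, 172 of 10666 3′ UTR regions (1.61%) were, against 2.30% of all its regions. The scores of the 2532 regions were close between replicates, with a median absolute difference of 0.57 log2 units and 74.6% of the regions within 1 unit. Of the 2532 regions, 1847 lay on the strand of their gene, 232 on the opposite strand and 453 in genes whose strand was not known. Without peaks overlapped on the other strand, 2030 regions were enriched in both replicates.

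Enriched regions were spread over many genes. Of the 5919 genes with a 3′ UTR peak in either IGF2BP2 list, 22.8% held at least 1 enriched region. One region was found in 753 genes, 2 to 4 in 516 and 5 or more in 78, and these 78 genes held 20.1% of all regions. Neighbouring enriched regions of 1 gene lay a median of 269 nt apart, and 6.32% of the 1013 neighbouring pairs abutted. Joining regions within 50 nt left 2348 sites, of which 160 held 2 or more regions. Most of the 1347 genes (927) had no enriched IGF2BP2 region in coding sequence or introns, while 104 also had one in coding sequence and 361 in an intron. For comparison, 357 of all 4966 genes with a reproducible coding region held an enriched one, and 2506 of 11801 genes for introns. Whether the 1347 genes depart from these shares was not tested. An enriched PTBP1 3′ UTR region was present in 43 of the 1347 genes (3.19%). These were 35.5% of the 121 genes with such a PTBP1 region, against the 22.8% of all genes with an IGF2BP2 3′ UTR peak. Of the enriched IGF2BP2 regions, 26 (1.03%) overlapped an enriched PTBP1 region, and 23 of the 172 PTBP1 regions (13.4%) overlapped an enriched one of IGF2BP2.

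The gene with the most enriched regions was CHST3, a chondroitin 6-sulfotransferase, with 12 of 19 reproducible regions. They span 4570 nt (chr10:72008888-72013457, hg38). CHST3 held 22 IGF2BP2 peaks in both replicates, with 1012 and 890 recovered IP reads, and 16 PTBP1 peaks in both, of which 0 were enriched. Its median 3′ UTR score was 3.51 and 3.86 in IGF2BP2 and -0.32 and -0.12 in PTBP1. The scores of the 2 proteins carry different constants, so these medians are given side by side only.

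FGFRL1, a member of the FGF receptor family that lacks a kinase domain, held 11 enriched regions in a single site of 700 nt (chr4:1025620-1026319, plus strand). All 27 IGF2BP2 peaks of replicate 1 and all 34 of replicate 2 in its 3′ UTR were enriched, with median scores of 6.94 and 6.89. PTBP1 had 4 peaks there in both replicates, with medians of -0.72 and -0.32. The lowest and highest region scores were 6.18 and 7.83 in replicate 1 and 6.34 and 8.30 in replicate 2. In 9 of the 11 regions the deposited −log10 p stood at its limit of 400 in both replicates, so the p cannot rank them. FGFRL1 is the densest stretch in the list, and its abutting peaks count as several regions although they form 1 site.

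FOSL2, which encodes the AP-1 subunit Fra-2, held 10 enriched regions at 9 sites over 3355 nt (chr2:28412963-28416317). It had 21 and 19 IGF2BP2 peaks and 19 and 20 PTBP1 peaks, and 2 of the PTBP1 regions were enriched too. MEF2D, a MADS-box transcription factor, also held 10 at 9 sites, from 19 and 23 peaks, with 1 enriched PTBP1 region. SCD, the stearoyl-CoA desaturase of fatty acid synthesis, held 10 of its 11 reproducible regions, and the top scores of its 3′ UTR were 6.78 and 6.15. SCD also held 4 enriched PTBP1 regions there, the most among the 15 genes with the most enriched IGF2BP2 regions.

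In 4 of these 15 genes regions were called on both strands. CDC42EP3, an effector of the small GTPase CDC42, held 10 enriched regions, 5 of them on the strand opposite to the gene. ANKRD33B, a gene for an ankyrin repeat protein, held 10 with 5 opposite, and PPME1, the methylesterase of protein phosphatase 2A, held 8 with 4 opposite. CCND1, which encodes the G1 cyclin D1, held 9 over 2884 nt (chr11:69651522-69654405). Of these, 6 were called on the plus strand and 3 on the minus strand, each of the 3 overlapping a plus-strand region or within 4 nt of one.

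Further genes among the 15 held 8 or 9 enriched regions. STK35 (a kinase gene) and SOGA1 held 9, and SCRN1, LUZP1 and B4GALT5 (a galactosyltransferase of lactosylceramide synthesis) held 8. In SOGA1, 2 PTBP1 regions were enriched as well. PTBP1 had 3′ UTR peaks in all 15 genes, between 3 and 22 in a library.

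**Figure D2:**
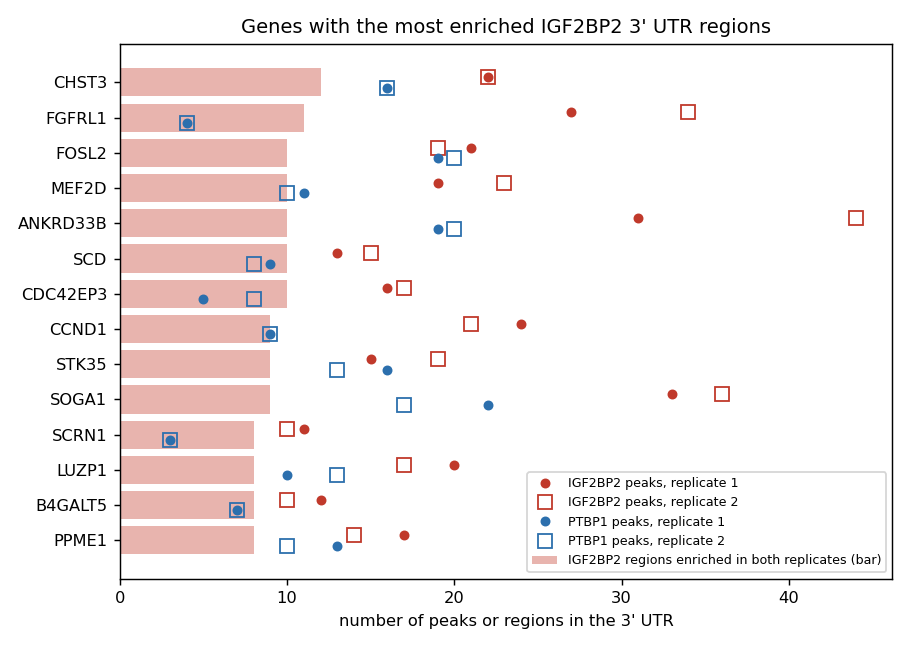
The plot shows 14 of the 15 genes with the most IGF2BP2 3′ UTR regions enriched in both replicates: bars give these regions, filled circles and open squares the number of 3′ UTR peaks in replicates 1 and 2 of IGF2BP2 (red) and PTBP1 (blue). ANKRD33B (31 and 44 peaks) and SOGA1 (33 and 36) lie farthest right, and FGFRL1 has 27 and 34 IGF2BP2 peaks against 4 and 4 of PTBP1.

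Among regions with at least 20 recovered IP reads in both replicates (707), the 10 with the highest lower score of the 2 replicates were named. Peaks at the −log10 p limit of 400 have no recovered reads, so regions held only by such peaks could not enter this ranking. FGFRL1 came first (chr4:1025764-1025896), with 204 IP to 3 input reads and 336 to 4, scores of 7.83 and 8.30. FOSL2 held the second (chr2:28416289-28416317) with 67 to 1 and 57 to 1 reads, and a further one (chr2:28415927-28415957) with 52 to 1 and 37 to 1. IER2, an immediate early response gene, had a region of 34 nt (chr19:13154589-13154622) with 91 to 2 and 101 to 1 reads. SPARC, a secreted matrix glycoprotein, had one of 17 nt (chr5:151662076-151662092, minus strand) with 121 to 3 and 106 to 1 reads, scores of 7.07 and 8.63. The others were in SNAI2 (the transcription factor Slug), CCN2 (connective tissue growth factor), RNPS1 (a splicing and exon junction protein), SLC2A1 (the glucose transporter GLUT1) and EXOC8 (a subunit of the exocyst). Their scores lay between 6.72 and 7.31 in either replicate. With 1 to 4 input reads, the score of such a region moves by up to 1 unit with a single input read.

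In 66 regions of 45 genes the deposited −log10 p stood at 400 in both replicates. After FGFRL1 with 9, ZFP36L1, which encodes a protein that binds AU-rich elements and promotes mRNA decay, held 6 such regions (chr14:68788702-68789542), with scores of 3.35 to 5.75 in replicate 1 and 3.87 to 6.05 in replicate 2. CCND1 held 4, and CDKN1A, JUN, SPARC and SQSTM1 held 2 each.

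Lists of genes by function showed where enriched regions were frequent, against 22.8% of all genes with an IGF2BP2 3′ UTR peak. Of mRNAs described as targets of the IGF2BP family, 20 of 30 had a 3′ UTR peak and 16 of these (80.0%) an enriched region. CCND1 held 9, CDK6 (a G1 kinase) 7, HMGA1 (a chromatin architectural protein) and YAP1 (the Hippo pathway coactivator) 4 each, and VEGFA 3. In YAP1 the 4 regions came from 5 and 4 IGF2BP2 peaks, with top scores of 6.38 and 5.36, against 0 and 1 PTBP1 peaks. ACTB, the first known zipcode target of the family, held 1 (top scores 6.57 and 6.21), and PTBP1 had an enriched region in the same 3′ UTR. IGF1R held 0 despite 24 and 14 peaks, and IGF2 and HMGA2 had no 3′ UTR peak in any of the 4 lists. The list was compiled from general knowledge of the family, with earlier results of these data known.

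Of the genes of the actin cytoskeleton and adhesion, 16 of 24 (66.7%) held an enriched region. Counting both strands, CDC42EP3 had the most with 10, of which 5 lay on the strand opposite to the gene. CFL1 (cofilin, which severs actin filaments) held 6 at 4 sites and TAGLN2 (transgelin 2) 5 at 3 sites. TPM4 (a tropomyosin) and CDC42EP4 held 4 each and VCL (vinculin) 3. TPM4 had 11 and 9 IGF2BP2 peaks and 0 PTBP1 peaks in both replicates. FLNA, the large actin crosslinker filamin A, had 4 and 3 peaks, whose top scores were 1.43 and 0.13.

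Of AP-1, MEF2 and early response factors, 11 of 20 (55.0%) held one. Beside FOSL2 and MEF2D, the zinc finger gene KLF7 held 5 at 5 sites and the circadian repressor BHLHE40 5 at 2 sites. FOSL1 held 4, and IER2, JUN, SRF and NR4A1 2 each. MAFK had 23 and 28 IGF2BP2 peaks and 33 and 27 PTBP1 peaks and 0 enriched regions, with top IGF2BP2 scores of 2.48 and 2.76. Many peaks in a 3′ UTR thus did not entail an enriched one.

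Of the G1 genes 8 of 15 (53.3%) held an enriched region. CDKN1A, the CDK inhibitor p21, held 7 at 6 sites over its 3′ UTR, the one nearest to the end of the gene (chr6:36687207-36687237, plus strand) with 70 to 3 and 72 to 2 reads. CDKN1C (p57) held 2 from 2 and 4 peaks. CDK4 and RB1 had no 3′ UTR peak in either IGF2BP2 list. Of regulators of mRNA decay and translation 11 of 22 (50.0%) held an enriched region. ZFP36L1 held 6 at 3 sites and TOB2 (an antiproliferative adaptor of deadenylation) 5 at 4 sites. LARP1 (which binds terminal oligopyrimidine mRNAs) held 4 at 4 sites and BTG2 3 at 3 sites. Among the genes for argonaute proteins, AGO2 held 1 and AGO1 and AGO3 held 0.

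Of extracellular matrix genes 9 of 20 (45.0%) held one, with TIMP2 (a metalloproteinase inhibitor) at 5, and SPARC and SDC4 (syndecan 4) at 3. COL6A2 had 2 peaks in both replicates with top scores of -1.14 and -0.27, the lowest in that list. Of growth factor receptors 6 of 14 (42.9%) held one. After FGFRL1 came EPHA2 with 3 and AXL with 2, while EGFR held 0 from 13 and 10 peaks, with 7 enriched regions in its introns. Of genes for sterol and fatty acid synthesis 7 of 18 (38.9%) held one, and SCD accounted for 10 of its 23 regions.

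The remaining lists lay near or below the share of all genes. Of nuclear-encoded subunits of oxidative phosphorylation 3 of 11 (27.3%) held an enriched region, COX7C, COX8A and CYC1 with 1 each. Of TGF-β and BMP signalling genes 3 of 17 (17.6%) did, and 6 of the 8 regions were in SKI, a corepressor of SMAD proteins. Of cytosolic ribosomal protein genes, 21 of 75 had a 3′ UTR peak and 1 (4.76%), RPL23A, an enriched region. Genes differed in the number of 3′ UTR peaks they had to pass the bar with, from a median of 1 per gene in the oxidative phosphorylation list and 2 in the ribosomal list to 6.5 in the receptors. Lists with shares of 38.9% or more had medians of 3.75 to 6.5. Over all genes with a 3′ UTR peak in the replicate, the median number of peaks was 3 in both replicates. The part of that number in the shares was not tested.

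**Figure D3:**
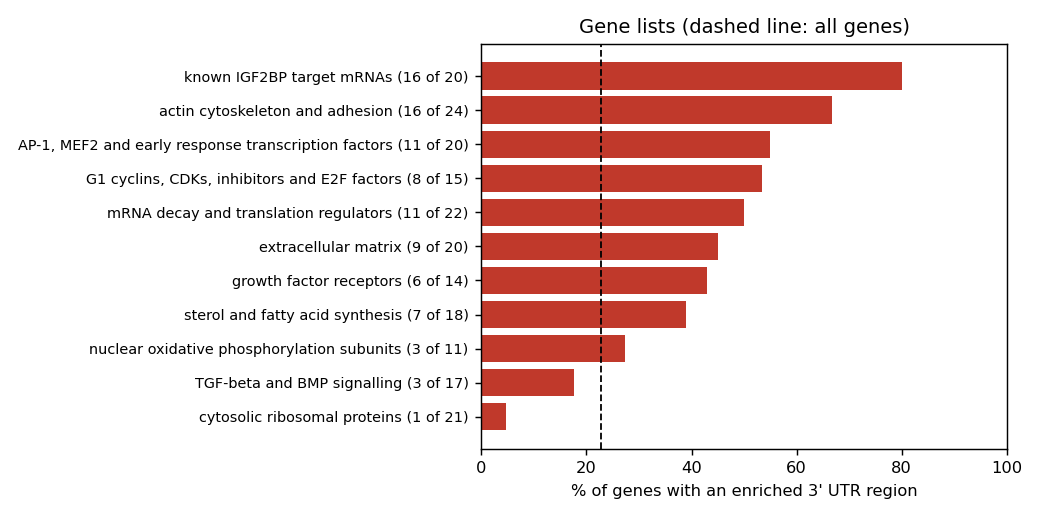
Share of genes with an IGF2BP2 3′ UTR peak that hold a region enriched in both replicates (x axis, percent), by gene list, with the number of genes in brackets; the dashed line is the 22.8% of all such genes. Lists run from 80.0% (family targets) to 4.76% (ribosomal proteins).

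The genes of the family and of PTBP1 differed among themselves. IGF2BP1 held 4 enriched IGF2BP2 regions from 20 and 21 3′ UTR peaks (chr17:49050281-49055540), with top scores of 5.32 and 5.23. IGF2BP2 itself had 2 and 4 peaks there and IGF2BP3 had 2 and 1, with 0 regions enriched in both replicates. PTBP1 held 2 enriched IGF2BP2 regions at 1 site of 90 nt (chr19:811878-811967). Over the whole 3′ UTR of this gene, its own protein had 7 and 4 peaks, none of them enriched.

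Peaks in the 3′ UTR scored above coding peaks of the same gene for IGF2BP2 and slightly below them for PTBP1. This compares the median score of the 3′ UTR peaks with that of the coding peaks within 1 gene and 1 library, so the constant of the scale cancels. It was computed for the 1077 genes with at least 2 peaks of both kinds in all 4 libraries. The median difference over genes was 1.20 and 1.14 log2 units in IGF2BP2 replicates 1 and 2 and -0.27 and -0.30 in those of PTBP1. It was above 0 in 81.4% and 78.6% of the genes for IGF2BP2 and in 37.6% and 36.7% for PTBP1. By limma at an adjusted p of 0.05 over all 1077 genes, the difference was higher in IGF2BP2 in 444 (41.2%) and higher in PTBP1 in 13 (1.21%). Without PTBP1 replicate 1 or 2, the median difference between the proteins was 1.47 and 1.47, against 1.46 with all 4 libraries. Far fewer genes passed in these fits, in which the spread between replicates comes from IGF2BP2 alone. Among peaks of 5 to 20 IP reads, where 314 genes could be tested, limma called 51 (45 higher in IGF2BP2).

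SPARC stood farthest apart, with 3′ UTR minus coding values of 7.03 and 7.70 in IGF2BP2 and -0.88 and -0.88 in PTBP1, a difference of 8.24 ± 0.51 (SE, limma adjusted p = 0.0026). In STK10, a serine/threonine kinase gene, the values were 5.81 and 5.59 against -0.15 and -0.19, a difference of 5.87 ± 0.48. In VCL they were 4.32 and 4.18 against -0.96 and -1.33, a difference of 5.40 ± 0.50. In MSN, which encodes moesin, a linker of actin to the membrane, they were 4.23 and 5.06 against -0.94 and -0.80. The 4 genes were named on the condition that both IGF2BP2 libraries lay above both PTBP1 libraries, so that order is not a separate result.

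The other genes with the largest differences toward IGF2BP2 were SPTBN1 (a spectrin chain), NCBP3 (a cap-binding protein), EXOC8, CFL1, RNF169 (a ubiquitin ligase of the DNA damage response) and TXNRD1 (thioredoxin reductase), with differences of 5.35 to 5.97. In TXNRD1 the distance came mostly from PTBP1, with values of 1.73 and 1.11 in IGF2BP2 and -4.11 and -3.74 in PTBP1. The largest differences toward PTBP1 were smaller. DND1, an RNA-binding protein of germ cells, had -0.68 and -3.22 in IGF2BP2 and 0.65 and 1.68 in PTBP1, a difference of -3.12 ± 0.90 (SE, limma adjusted p = 0.036). The IGF2BP2 replicates of DND1 lay farther apart than those of PTBP1. In NOP9, a pumilio-like ribosome biogenesis factor, the values were -2.06 and -2.40 against -0.32 and 0.61. The other 8, among them ARHGEF39, MAZ and WDR6, had differences of -2.77 to -1.88.

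**Figure D4:**
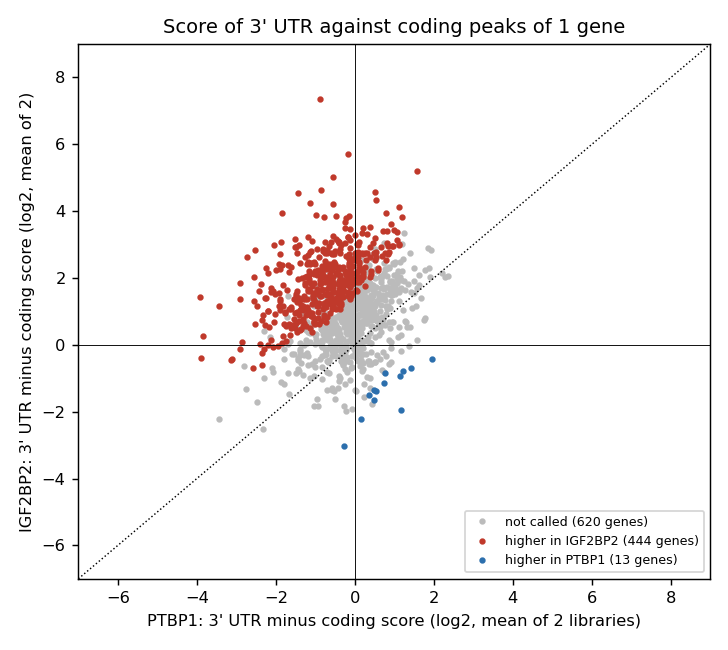
Median 3′ UTR score minus median coding score of 1 gene, in log2 units, for PTBP1 (x axis) and IGF2BP2 (y axis), each the mean of 2 libraries, for 1077 genes; the dotted line marks equal values. Most genes lie above the dotted line, 444 of them called higher in IGF2BP2 (red) and 13 higher in PTBP1 (blue).

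Genes with many enriched regions did not all differ in this measure. CCND1 had 1.11 and 2.53 in IGF2BP2 and -2.31 and -2.47 in PTBP1, a difference of 4.21 ± 0.61. CDK6 had 2.17 and 2.32 against -1.29 and -2.73. CHST3 had 2.47 and 2.99 against -0.05 and 0.48. FOSL2, in contrast, had 1.41 and 1.04 against 0.35 and 0.57, a difference of 0.77 ± 0.49 that did not pass (limma adjusted p = 0.25). SCD had -0.09 and 0.26 against -0.57 and 0.47, and its libraries overlapped.

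By list, the difference was called toward IGF2BP2 in 5 of 5 tested family targets, 7 of 8 actin genes, 5 of 6 receptors, 6 of 8 early response factors, 4 of 5 matrix genes, 4 of 6 G1 genes, 2 of 3 TGF-β and BMP genes, 3 of 7 sterol and fatty acid genes and 4 of 11 decay regulators, and toward PTBP1 in 0 of any list. The share over all tested genes was 41.2%. The median difference was 4.21 in the family targets and 1.46 over all tested genes. IGF1R and EGFR, without an enriched region, were among the called receptors: EGFR had 2.33 and 2.95 in IGF2BP2 and -0.20 and 0.37 in PTBP1. Few members of each list had enough peaks to be tested.

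The number of 3′ UTR peaks per gene was called higher in IGF2BP2 for some genes and higher in PTBP1 for others. The measure is log2 of the peaks of a gene, plus a pseudocount of 0.5, per 10000 3′ UTR peaks of the list, so differences of genes with few peaks are understated. Of 3862 genes with at least 6 3′ UTR peaks over the 4 libraries, limma called 302 (7.82%) higher in IGF2BP2 and 214 (5.54%) higher in PTBP1. Of these calls, 198 and 103 were genes with peaks of 1 protein only, which could pass the filter only through the protein where they are high. Among the 3531 genes with peaks of both proteins, 104 were called higher in IGF2BP2 and 111 higher in PTBP1. The split depended on the pseudocount, with 303 and 380 at a pseudocount of 2, and on the filter, with 475 and 782 without it. The median difference over genes was 0.066 and 0.048 without PTBP1 replicate 1 or 2, against 0.056 with all libraries. Without IGF2BP2 replicate 1 or 2 it was 0.079 and 0.095. Calls fell without a PTBP1 library and rose without an IGF2BP2 library. In such fits the spread between replicates comes from 1 protein alone. Without peaks overlapped on the other strand limma called 309.

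All 10 of the genes with the largest difference toward IGF2BP2 had 0 PTBP1 peaks in the 3′ UTR. ZNF316, a zinc finger gene, had 13 and 14 IGF2BP2 peaks, PPP1R9B (the actin-binding protein spinophilin) 12 and 14, SH3GL1 (an endophilin) 13 and 12, KIF3C (a kinesin motor) 10 and 12 and DYRK2 (a kinase) 8 and 13. The others were TPM4, PIP5K1C, GOLGA3, RGMB and TMEM201, with 8 to 11 peaks in a library. The 10 toward PTBP1 had 0 IGF2BP2 peaks in turn: MBP, the myelin basic protein gene, had 12 and 13 PTBP1 peaks, L3MBTL1 12 and 12 and MYRF (a myelin regulatory factor) 12 and 7. All 20 passed the filter through 1 protein alone, so their numbers of peaks are a description and no p is given. FGFRL1 had 27 and 34 against 4 and 4 peaks and EGFR 13 and 10 against 2 and 2, and both were called, as was CCND1 (24 and 21 against 9 and 9). CHST3 (22 and 22 against 16 and 16) and CDKN1A (13 and 12 against 12 and 9) did not pass, nor did FOSL2.

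Peaks on the strand of their gene were placed by their distance, along the genome, from the annotated end of the gene in RefSeq, which could be done for 70.5% and 70.3% of the 3′ UTR peaks. The median distance was 1304 and 1284.5 nt for IGF2BP2 and 1500 and 1466 nt for PTBP1. For enriched peaks it was 1288.5 and 1279.25 nt for IGF2BP2, from 3599 and 3494 peaks, and 1721.25 and 1617 nt for PTBP1, from 308 and 269. Of the enriched IGF2BP2 peaks 20.6% and 21.0% lay within 500 nt of the end, against 12.0% and 13.4% of the enriched PTBP1 peaks. Within IGF2BP2, the median of the enriched peaks was close to that of all 3′ UTR peaks. The distance counts from the longest annotated end, whereas mRNAs can end earlier, and no test was made.

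**Figure D5:**
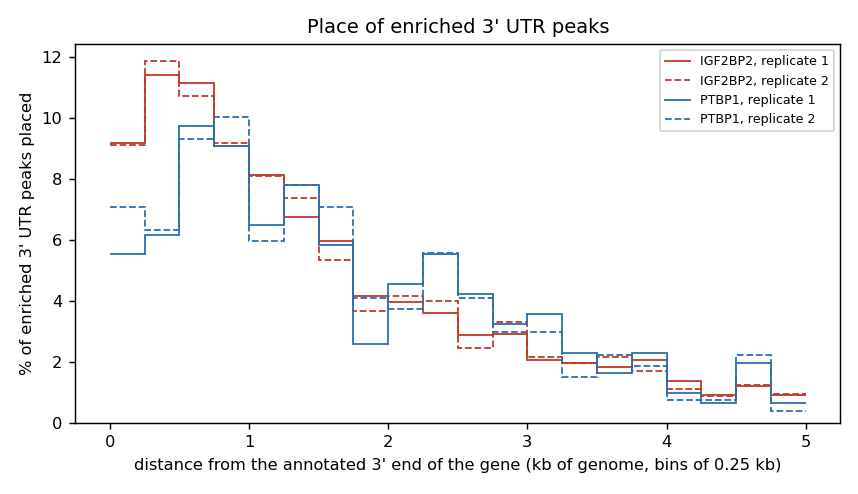
Enriched 3′ UTR peaks on the strand of their gene by distance from the annotated 3′ end (x axis, kb of genome in bins of 0.25 kb, up to 5 kb), as percent of the peaks placed (y axis), for both replicates of IGF2BP2 (red) and PTBP1 (blue). The IGF2BP2 lines are highest in the bin from 0.25 kb, and 9.17% and 9.10% of the peaks lie within 0.25 kb of the end, against 5.52% and 7.06% for PTBP1.

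The glioma label was checked on peaks annotated to exons. Of 9 genes expressed in glioma or mesenchymal cells, 6 (VIM, NES, CD44, FN1, S100A6 and OLIG2) had exon peaks in all 4 libraries, GFAP had them in 2, and TNC and SOX2 had 0 exon peaks. Of 6 markers of other cells, CD3E and PECAM1 had 0 exon peaks in any library, PTPRC had 2 in IGF2BP2 replicate 2 and EPCAM 1 in PTBP1 replicate 2. RBFOX3, a marker of neurons, had 6 exon peaks in both PTBP1 libraries and 0 in those of IGF2BP2. MBP, a marker of oligodendrocytes, had 12 and 13 in PTBP1 and 0 in IGF2BP2. A peak list shows bound RNA and not expression, so an absent peak does not show an absent mRNA. Some exon peaks lie on the strand opposite to their gene, so a present peak does not prove the mRNA either.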

How the data were processed

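The 4 IP libraries had 1 peak list each. HISAT2 and hg38 are named in the submitters' processing notes, with no version given. Peak caller and annotation: not given in the sources used here. Per the file headers, the authors deposited for every peak its position, strand, gene, transcript region, −log10 p and overlap length in nt. The deposited −log10 p runs from 0 to 400 and stops there. A deposited column headed as a count holds log2 values: as read from them, the log2 ratio of IP to input reads, shifted by 1 constant per chromosome. IP and input reads were recovered where log2 and p matched whole reads within 1% (99.5%, 99.6%, 98.5% and 98.4% of eligible peaks of IGF2BP2 and PTBP1 replicates 1 and 2). The constant of a chromosome was set by taking its commonest log2 as 3 IP reads to 1 input read. Simulated reads came back right in 100% of 18706 peaks. The simulation used the same formulas and constants, so it checks the computation and not the assumptions behind it. Library depth is unknown.

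Each library was placed on the median constant of its 24 main chromosomes. Peaks overlapped when they shared at least 1 nt on 1 strand, and regions join overlapping peaks of both replicates. Gene strands came from the RefSeq promoter table and gene ends from the RefSeq gene table (GRCh38.p14). Gene tests used limma 3.58.1 (R 4.3.3) with Benjamini-Hochberg adjustment at 0.05, and shares were tested by exact permutation. On values simulated with the spread between replicates, 200 genes were changed in either test: for peak density, 55% were recovered at a log2 change of 2 and 100% at 4, and for the 3′ UTR minus coding score 51% and 100%. No motif search in 3′ UTR sequence was made.

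The text names the 15 genes with the most enriched regions (1 of them and a few list members are not reported here), the 10 top regions with at least 20 IP reads in both replicates, the 10 largest called differences toward either protein in each gene test with the libraries apart, at most 6 leading members per list, and the genes of the family and PTBP1. Other members of the lists are named to show members without enriched regions or with lower values, and these, the printed sequences and the genes at the p limit were picked with their values in view. The members and lists were chosen with earlier results of these data known. Alternatives covered the bar, pseudocount, scaling, filters, overlap, strand, replicate block and single libraries.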

Additional observations from a re-analysis of the deposited data

Results flagged for a closer look

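The 3′ UTR minus coding score within a gene differed between the proteins by a test of the difference itself: limma called 457 of 1077 genes at an adjusted p of 0.05, 444 higher in IGF2BP2 and 13 higher in PTBP1. Its median over genes was 1.20 and 1.14 in the IGF2BP2 libraries and -0.27 and -0.30 in the PTBP1 libraries.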

How the results depend on the processing

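The share of enriched 3′ UTR peaks kept a higher value in IGF2BP2 under every alternative run, with a difference of 8.87 to 36.8 percentage points. No alternative gave the 2 proteins the same bar in reads. The 2532 regions enriched in both replicates became 5008 at a bar of 2 and 1106 at a bar of 4 for log2 and −log10 p, and stayed between 1847 and 2562 under the others. A peak of the other replicate was found for 59.7% and 61.9% when 50% of the shorter peak had to overlap and for 88.7% and 89.9% of peaks of at least 10 IP reads. The 457 genes limma called on the 3′ UTR minus coding score became 290 with at least 3 peaks of both kinds (565 genes tested), 51 for peaks of 5 to 20 IP reads (314 tested), and 0 to 469 when single libraries were left out. The 516 genes called on peak density became 1257 without the filter, 876 on nucleotides covered, 832 for peaks of at least 10 IP reads, 309 without peaks overlapped on the other strand, and 0 to 1204 when single libraries were left out. The cause was not tested. Alternatives by strand, and density on peaks of at least 10 reads, were chosen after seeing the data. Same-numbered replicates did not deviate together over genes (correlations of -0.02 for density and -0.01 for the score). From 2 replicates per protein this cannot show whether same-numbered libraries shared a culture or batch. With the replicate block limma called 286 genes on the score and 0 on density (524 and 1174 at an unadjusted p under 0.05). The share of enriched peaks differed by 18.7 percentage points in both replicates. Its two-sided exact permutation p was 0.5, the smallest that 2 blocks allow. Of the 20 genes named as largest differences in the score, 11 stayed called with the replicate block. Most of the 20 were no longer called without a PTBP1 library, although their differences kept their sign. Recovered reads limit every value here, since peaks of fewer than 6 IP reads could not pass the bar in IGF2BP2.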
